A study of Mus musculus with 18 samples.

Results

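The complement system of the mouse uterus was examined through 31 genes that encode its components, regulators and receptors. They were chosen by symbol, as the rows of the deposited expression table that carry 1 of 31 listed names, and all 31 were found among the 25791 genes of the table. By role they comprised 7 genes of the classical pathway, 2 of the lectin pathway, 4 of the alternative pathway, 3 of the terminal pathway, 9 regulators and 6 receptors. Messenger RNA had been sequenced from uterine cross sections of mice aged 12 weeks on a mixed 129Sv X C57BL/6 background. Wild-type mice (WT) were compared with mice lacking Tsc2 in the uterus (KO), Tsc2 being the gene of a brake on the growth-promoting kinase complex mTORC1. Both genotypes were sampled in 3 hormone states: unoperated (intact), ovariectomised when 4 weeks old (ovx), and ovariectomised and then given 17β-estradiol (0.5 mg in a 90-day release pellet) over 8 weeks (E2). There were 6 groups of 3 libraries, making 18. The labels call the deletion uterine-specific; the Cre driver, the cells it reaches and the estrous stage of intact mice are not given in the sources used here, nor is it said that each library is a separate mouse, so p-values measure the spread between samples.

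Complement is a cascade of blood and tissue proteases that marks surfaces with C3 fragments. The classical pathway starts with C1q, which recruits the proteases C1r and C1s to cut C4 and C2, and the lectin pathway starts with carbohydrate-binding proteins and the MASP proteases. The alternative pathway amplifies deposited C3 with factors B and D and is stabilised by properdin, and all routes lead to the C5b-9 membrane attack complex. Most circulating complement is made by the liver, C1q is made largely by macrophages and dendritic cells, and uterine epithelium of rodents secretes C3 and factor B under estrogen.

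Promoter sequences were taken from RefSeq on GRCm38.p6, as 250 bases before to 50 bases after a start site, for 21 members that had an entry. Of these, 5 are shown, on the strand of the gene: C3, C4bp and Itgam, which were among the genes that rose under estradiol, and the neighbours C1qb and C1qc, whose levels moved together. Capitals mark every match, on either strand, to the estrogen response element half-site GGTCA, the C/EBP-type pattern TTGCNNAA, the PU.1-type pattern GAGGAAG and the TATA box TATAAA. No capitals stand for the full estrogen response element (GGTCA, any 3 bases, TGACC), the NF-κB-type pattern (GGGA, any base, TT, any base, CC) or the E-box CACGTG, which had no match in these 5 windows; GGTCA lies within the full element.
C3 (chr17:57228087-57228386, minus strand): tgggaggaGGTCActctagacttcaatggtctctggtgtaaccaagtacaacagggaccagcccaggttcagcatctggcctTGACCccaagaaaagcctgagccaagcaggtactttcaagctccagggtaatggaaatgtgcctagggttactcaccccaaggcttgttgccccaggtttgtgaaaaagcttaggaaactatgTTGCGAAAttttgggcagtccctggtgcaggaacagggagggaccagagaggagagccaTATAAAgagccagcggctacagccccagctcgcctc
C4bp (chr1:130661569-130661868, minus strand): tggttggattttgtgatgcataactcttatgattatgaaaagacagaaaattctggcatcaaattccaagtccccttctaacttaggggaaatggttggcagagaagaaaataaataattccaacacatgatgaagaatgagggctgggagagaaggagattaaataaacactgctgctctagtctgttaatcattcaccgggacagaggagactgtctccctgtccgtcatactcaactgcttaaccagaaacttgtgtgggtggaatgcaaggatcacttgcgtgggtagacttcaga
Itgam (chr7:128062390-128062689, plus strand): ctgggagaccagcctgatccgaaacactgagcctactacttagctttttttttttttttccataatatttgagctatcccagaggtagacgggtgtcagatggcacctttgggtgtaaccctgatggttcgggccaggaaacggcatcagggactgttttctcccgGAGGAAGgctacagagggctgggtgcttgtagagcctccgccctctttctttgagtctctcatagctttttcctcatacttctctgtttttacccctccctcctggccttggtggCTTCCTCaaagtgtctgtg
C1qb (chr4:136886151-136886450, minus strand): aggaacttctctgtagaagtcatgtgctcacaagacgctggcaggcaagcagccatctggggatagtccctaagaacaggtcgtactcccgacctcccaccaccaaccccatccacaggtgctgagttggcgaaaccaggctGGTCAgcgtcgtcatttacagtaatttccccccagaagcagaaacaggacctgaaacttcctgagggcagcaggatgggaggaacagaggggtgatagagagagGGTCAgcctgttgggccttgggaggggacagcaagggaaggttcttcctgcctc
C1qc (chr4:136892865-136893164, minus strand): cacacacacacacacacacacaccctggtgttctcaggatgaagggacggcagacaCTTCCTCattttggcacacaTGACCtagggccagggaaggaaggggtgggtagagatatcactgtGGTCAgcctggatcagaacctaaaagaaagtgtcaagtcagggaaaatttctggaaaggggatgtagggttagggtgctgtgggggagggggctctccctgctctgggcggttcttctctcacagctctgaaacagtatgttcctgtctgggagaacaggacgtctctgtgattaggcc
The C3 window held half-sites from bases 9 and 83, a C/EBP-type match from base 206 and a TATA box from base 265. In C1qb the half-site occurred from bases 143 and 247, and in C1qc from bases 77 and 122 beside a PU.1-type match from base 57. Itgam held PU.1-type matches from bases 167 and 282, and C4bp held none of the patterns. Among all 32851 promoter windows of the same length, 40.5% held the half-site, 10.8% the C/EBP-type, 13.6% the PU.1-type and 13.6% the TATA pattern, while 0.07% held the full element, 1.2% the NF-κB-type pattern and 7.15% the E-box. A match is a string of letters and was not tested as a binding site.

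Values are FPKM, that is, fragments scaled by transcript length and by the library's mapped fragments, so levels of different genes can be set side by side per length. Genes with at least 1 FPKM in at least 3 libraries were tested, 13898 in all and 26 of the 31 members. Without WT ovx libraries Masp2 and Vtn would have missed this level, and without KO E2 libraries so would C5ar1, Cfd, Itgax, Fcna, Ptx3 and Cpn1. These genes were chosen for testing through groups where they were high, which limits what calls against those groups can show. Fits with libraries left out kept the same genes. Each difference is given on the log2(FPKM + 1) scale, followed by its standard error (SE), from limma fitted to all 18 libraries; this scale understates changes of low genes. A gene was called at a p under 0.05 after Benjamini-Hochberg adjustment over all genes tested. The ovx libraries serve both the E2 and the intact comparisons, and every KO or WT group enters several comparisons, so results that share a group are not independent. Values of a group are listed by replicate number, which ran 1, 2, 4 in WT intact, 1, 3, 4 in KO intact, 1, 2, 3 in WT ovx, 1, 2, 4 in KO ovx, 1, 2, 5 in WT E2 and 1, 2, 3 in KO E2. Where a call ended without a library, the number in parentheses after it is the adjusted p without it. In bulk tissue, fewer cells of a type cannot be told from less RNA per cell.

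Several libraries stood apart from their groups. Tsc2 was 2.04 to 2.51 FPKM in WT intact against 1.62 to 1.98 in KO intact libraries, 3.17 to 3.49 against 2.39 to 3.33 in ovx and 2.38 to 2.73 against 1.75 to 2.42 in E2, with KO below WT without overlap in the intact state and overlap in ovx and E2. The labels name no batch. The number of sets was fixed at 4, so only their membership was inferred. Sets were inferred from the spacing of the lowest values alone, which divided the libraries into 4 sets, called batches here: batch 1 (WT intact replicates 1 and 4, KO intact replicates 1 and 4), batch 2 (WT intact replicate 2, KO intact replicate 3), batch 3 (WT ovx replicates 1 and 3, all KO ovx, WT E2 replicate 5, KO E2 replicate 3) and batch 4 (WT ovx replicate 2, WT E2 replicates 1 and 2, KO E2 replicates 1 and 2). Intact and ovx libraries shared no batch, so batch and the presence of ovaries cannot be told apart. WT intact replicate 4 had 62.0 FPKM summed over 10 stroma markers against 450 and 579 in the other WT intact libraries, and its 12 epithelium markers summed to 1525 against 447 and 676. Among KO E2 libraries, replicate 2 had 887 FPKM of epithelium and 214 of stroma markers, whereas replicates 1 and 3 had 122 and 336 of epithelium and 1155 and 1084 of stroma markers. Adipoq, the adipocyte gene of adiponectin, was at least 1 FPKM in 4 libraries, namely KO ovx replicate 4 (15), WT E2 replicate 2 (2.71), KO E2 replicate 1 (16.4) and KO E2 replicate 3 (97.2). Uterine epithelium, stroma and smooth muscle markers were detected in every group.

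**Figure D1:**
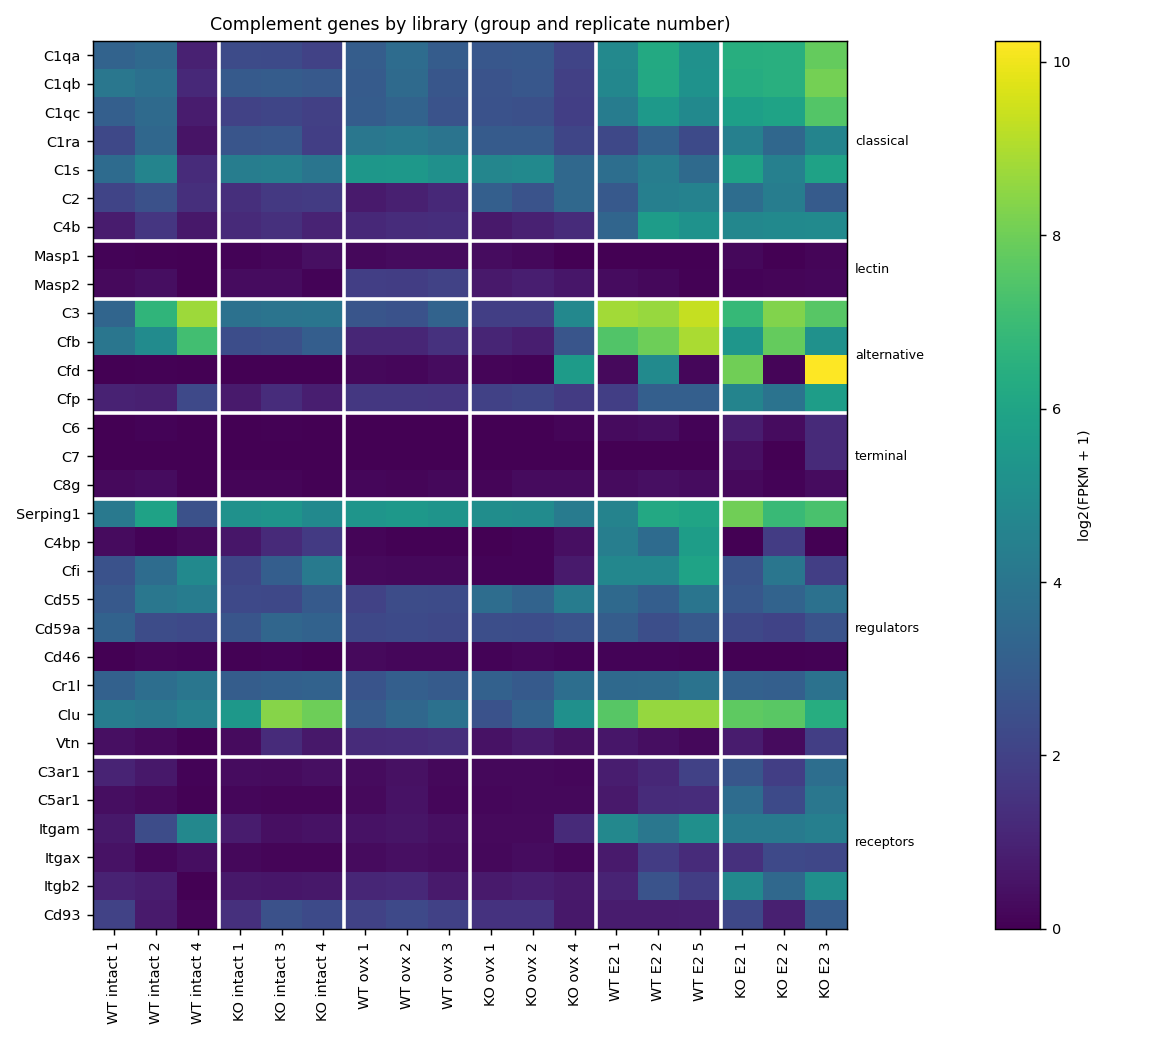
Levels of the 31 complement genes (rows, by role) in the 18 libraries (columns, by group and replicate) as log2(FPKM + 1). C3, Cfb and Clu are higher in E2 than in ovx libraries of each genotype, and the terminal pathway genes stay at or below 1.33 FPKM.

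Estradiol changed most members. In WT, 20 of 26 tested members were called between E2 and ovx, 16 higher and 4 lower, where 47.5% of all genes tested were called (32.3% higher, 15.2% lower). In KO, 16 of 26 were called, 15 higher and 1 lower, against 27.1% of all genes (15.9% higher, 11.2% lower). The median member differed by 1.16 in WT and 2.63 in KO, and the median gene by 0.24 and 0.07. Median-ratio scaling of the libraries moved the median gene to 0.10 in WT and 0.04 in KO and kept every member's call and direction. Counts from refits on fewer libraries or other settings are given, here and below, without the share of all genes in that fit. They therefore do not show whether members moved more than other genes. In WT, 13 members were called without WT ovx replicate 1 or WT E2 replicate 5. Within batch 3, 12 members were called in WT and 10 in KO, and within batch 4, which held no KO ovx library, 7 in WT. Without the 4 libraries with Adipoq of at least 1 FPKM, which leaves 1 KO E2 library assumed to vary like the rest, the counts were 20 and 16.

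Genotype changed fewer. In the intact state 1 member of 26 was called between KO and WT (2.18% of all genes), in ovx 3 (2 higher and 1 lower in KO; 5.42% of all genes) and under E2 6 (4 higher and 2 lower; 8.49% of all genes). The median member's differences were -0.09, -0.10 and 0.63, beside -0.04, 0.09 and -0.05 for the median gene. The intact count was 4 without WT intact replicate 1 and 0 when replicate 2 or 4 of WT or replicate 3 or 4 of KO was left out, where 4 to 7 members had an unadjusted p under 0.05 in limma. In ovx it was 1 without WT ovx replicate 1 or KO ovx replicate 4. The E2 count was 3 without WT E2 replicate 1 and 11 without KO E2 replicate 2.

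With ovaries in place, 10 members differed from ovx in WT, 6 higher and 4 lower (45.3% of all genes called), and 5 in KO, 2 higher and 3 lower (15.9% of all genes). The KO calls compare with 7.14% of all genes higher and 8.74% lower. Without KO intact replicate 3 or KO ovx replicate 1 the KO count was 2. The genotypes differed in the response to E2 at 6 members, 4 higher and 2 lower (11% of all genes, 4.05% higher and 6.95% lower), and in the response to ovaries at 3, 1 higher and 2 lower (4.63%, 1.02% higher and 3.6% lower). The count for the E2 response was 13 without KO E2 replicate 2 and 11 with median-ratio scaling. The count for the response to ovaries was 1 without WT ovx replicate 1 and 7 without WT intact replicate 1. The libraries of the 2 groups did not overlap for 3 members between KO and WT in the intact state (22.8% of all genes), 12 in ovx (40.2%) and 13 under E2 (22.5%). Between E2 and ovx they did not overlap for 23 members in WT (66.7%) and 17 in KO (36.3%), and between intact and ovx for 13 in WT (61%) and 12 in KO (41.1%).

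**Figure D2:**
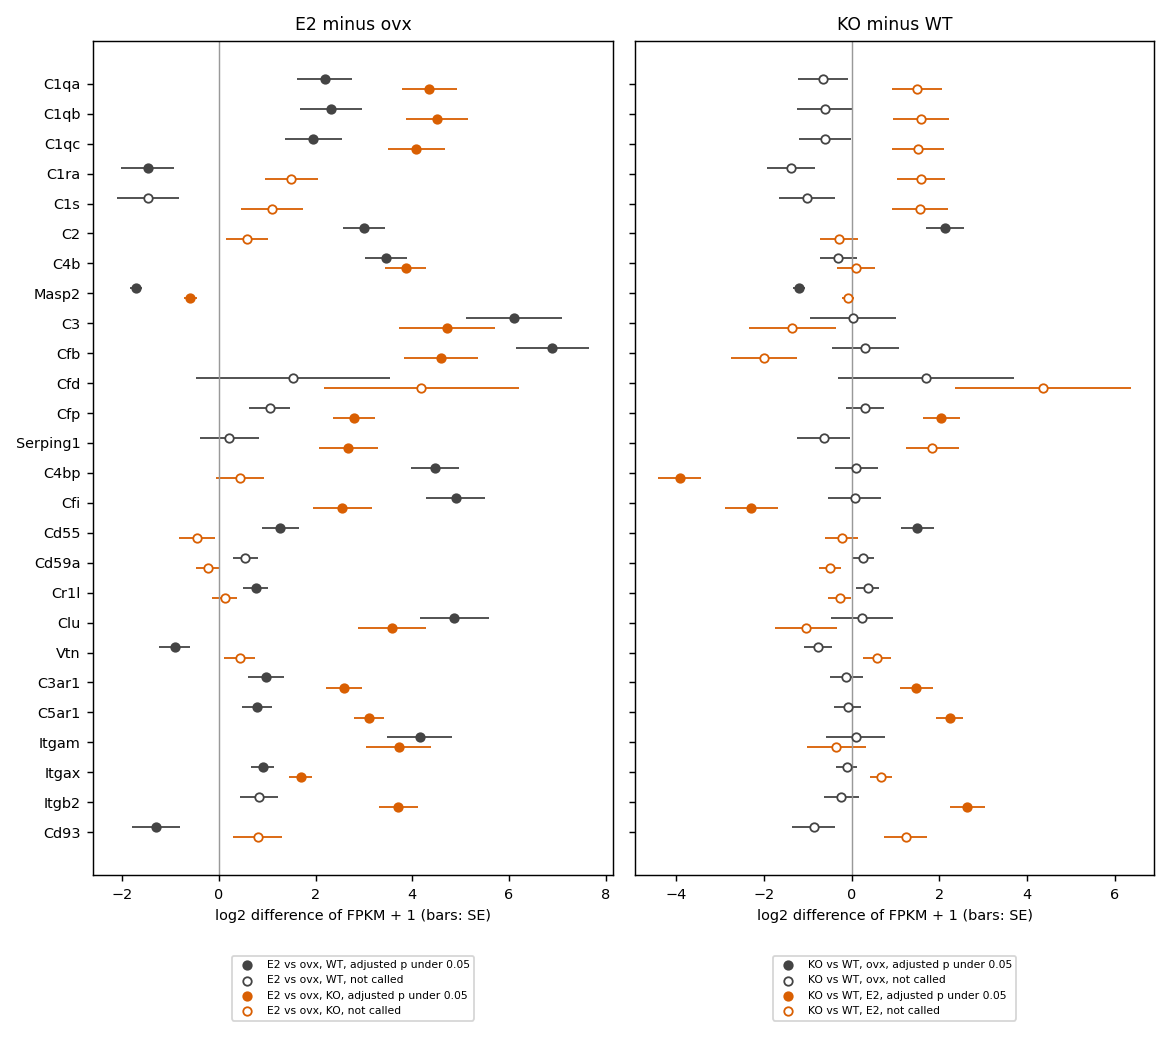
Log2 differences of FPKM + 1 (points) with SE (bars) for the 26 tested members, E2 minus ovx in WT (grey) and KO (orange) on the left and KO minus WT in ovx (grey) and E2 (orange) on the right. Filled points were called; C3, Cfb, Clu and Itgam rose with E2 in both genotypes, and C4bp is the lowest point for KO minus WT under E2.

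Among classical pathway genes, the 3 chains of C1q rose together with E2 in both genotypes. C1qa in the ovx state was 7.22, 11.3 and 6.87 FPKM in WT and 5.78, 6.04 and 3.27 in KO libraries. C1qa under E2 was 27.2, 72.8 and 35.5 FPKM in WT and 85.4, 86.3 and 228 in KO libraries, and no E2 library overlapped ovx. Intact libraries held 8.47, 10.4 and 0.932 FPKM in WT and 4.06, 3.94 and 3.1 in KO libraries, with WT intact replicate 4 the lowest. E2 raised C1qa by 2.19 ± 0.57 (adjusted p = 0.00582) in WT and 4.35 ± 0.57 (adjusted p = 6.39e-05) in KO.

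In the partner chains, too, every E2 library exceeded every ovx library. C1qb was 6.58, 10.5 and 5.69 FPKM in WT and 5.14, 5.96 and 2.88 in KO libraries in ovx. C1qb under E2 was 26.1, 71 and 36.2 FPKM in WT and 80.8, 86.9 and 276 in KO libraries. Intact levels of C1qb were 15.9, 12.7 and 1.24 FPKM in WT and 6.38, 6.92 and 6.31 in KO libraries. WT intact replicate 4 was again the lowest. C1qc was 6.81, 8.52 and 5.13 FPKM in WT and 4.97, 4.66 and 2.77 in KO libraries in ovx. C1qc under E2 was 18.9, 44.5 and 28.3 FPKM in WT and 54.7, 59.8 and 180 in KO libraries. Intact levels of C1qc were 7.66, 10.7 and 0.703 FPKM in WT and 3.1, 3.35 and 2.89 in KO libraries. KO E2 replicate 3 was the highest library of each chain. E2 raised C1qb by 2.32 ± 0.64 (adjusted p = 0.00829) in WT and 4.52 ± 0.64 (adjusted p = 0.000127) in KO, and C1qc by 1.95 ± 0.59 (adjusted p = 0.0135) and 4.08 ± 0.59 (adjusted p = 0.000147). In WT the call of C1qc ended without WT E2 replicate 2 (0.0556), and within batches the WT changes of C1qa, C1qb and C1qc were 2.18 within batch 3 and 1.89 within batch 4, 2.39 within batch 3 and 1.94 within batch 4 and 2.08 within batch 3 and 1.66 within batch 4, none of them called. Within batch 3 the KO changes were 5.28, 5.65 and 5.16 and were called. KO did not differ from WT past the threshold under E2, with differences of 1.5 ± 0.57 (adjusted p = 0.121), 1.59 ± 0.64 (adjusted p = 0.148) and 1.51 ± 0.59 (adjusted p = 0.134).

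The ratio of C1qa to C1qc ran from 0.964 to 1.63 over the 18 libraries, and that of C1qa to C1qb from 0.491 to 1.21. The lowest C1qa to C1qb ratios were all in intact libraries, 0.491 to 0.815, and the other 12 libraries had 0.826 to 1.21. In the table's own coordinates C1qb, C1qc and C1qa lie side by side on chromosome 4, 3623 and 3000 bases apart. The 10 macrophage markers summed, in WT, to 34.2 to 52.7 FPKM in ovx and 175 to 667 in E2 libraries, and in KO to 28.9 to 567 and 746 to 2768. Cd14 alone was 135, 341 and 561 FPKM in WT E2 libraries. Lyz2 was 537 FPKM in KO ovx replicate 4 and 2470 in KO E2 replicate 3. From WT ovx to WT E2 the mean of Mrc1 fell from 1.24 to 0.783 FPKM and that of Cd163 from 0.258 to 0.0398. The means of the other macrophage markers rose. Of the 10 markers, Cd163 stayed under 0.1 FPKM in every WT E2 library and all 10 exceeded it somewhere in KO E2. The part of macrophage RNA in the C1q rise was not tested.

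C1ra and C1s, which encode the proteases of the C1 complex, were highest in WT ovx among the WT groups. C1ra was 15.5, 16.9 and 14.4 FPKM in WT and 6.73, 6.65 and 3.39 in KO libraries in ovx. C1ra under E2 was 3.66, 8.35 and 3.95 FPKM in WT and 21.3, 9.81 and 23.6 in KO libraries. Intact levels of C1ra were 3.62, 9.63 and 0.458 FPKM in WT and 5.56, 5.89 and 2.73 in KO libraries. In KO the E2 libraries stood above all ovx and intact libraries. C1s was 41.3, 43.5 and 34.7 FPKM in WT and 25.2, 27.9 and 9.87 in KO libraries in ovx. C1s under E2 was 12, 19.5 and 10.8 FPKM in WT and 58.9, 21 and 58.6 in KO libraries. Intact levels of C1s were 11, 23.3 and 1.4 FPKM in WT and 19.1, 20.3 and 14.6 in KO libraries. WT ovx libraries stood above all WT E2 and WT intact libraries in both genes. C1ra fell with E2 in WT with a difference of -1.47 ± 0.55 (adjusted p = 0.0388, -1.69 within batch 3 and -1.44 within batch 4, neither called), a call that ended without WT ovx replicate 1 (0.0859), WT ovx replicate 2 (0.091), WT ovx replicate 3 (0.0691), WT E2 replicate 1 (0.111) or WT E2 replicate 5 (0.11); it differed by 1.5 ± 0.55 (adjusted p = 0.0543) in KO. The WT difference of C1s with E2, -1.47 ± 0.64 (adjusted p = 0.0708), was not called. The difference between genotypes in the E2 response of C1ra was 2.97 ± 0.78 (adjusted p = 0.0268), a call that ended without WT ovx replicate 1 (0.0646), WT ovx replicate 2 (0.0574), WT ovx replicate 3 (0.05), KO ovx replicate 4 (0.0704), WT E2 replicate 1 (0.0635), WT E2 replicate 5 (0.0664), KO E2 replicate 1 (0.0649) or KO E2 replicate 3 (0.0542). Without the 4 libraries with Adipoq it was 2.28 (adjusted p = 0.241). In WT intact compared with WT ovx, C1ra was lower with a difference of -2.0 ± 0.55 (adjusted p = 0.00926) and C1s with a difference of -2.19 ± 0.64 (adjusted p = 0.0129), the latter not called without WT intact replicate 4 (0.0595).

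Stroma markers differed between the same libraries. The 10 stroma markers summed to 521 to 616 FPKM in WT ovx, 161 to 238 in WT E2 and 62.0 to 579 in WT intact libraries, and none was under 0.1 FPKM throughout a group. KO E2 replicates 1 and 3, with 1155 and 1084, held C1s at 58.9 and 58.6 FPKM, and replicate 2, with 214, held it at 21.0. WT intact replicate 4, with 62.0, held 1.40. Not all libraries followed this order. KO intact libraries, with stroma sums of 455 to 509, held C1s at 14.6 to 20.3 FPKM. KO ovx replicates 1 and 2, with 369 and 417, held more, at 25.2 and 27.9. Dcn alone was 297 to 342 FPKM in WT ovx libraries. From WT ovx to WT E2 the means of Col1a1 (19.9 to 25.5) and Col1a2 (21.9 to 31.4) rose, and those of the other stroma markers fell. In KO E2 replicates 1 and 3, Hoxa10 (5.6 and 4.77), Hoxa11 and Hand2 were below every WT ovx library. Pdgfra, Col1a1, Col1a2, Col3a1, Lum and Vim were above every WT ovx library there. The part of stroma content in the C1ra and C1s differences was not tested.

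C2 and C4b encode the substrates of C1s, which join as the C3 convertase of the classical and lectin pathways. C2 was 0.672, 0.88 and 1.24 FPKM in WT and 7.62, 5.21 and 10 in KO libraries in ovx. C2 under E2 was 6.17, 20.5 and 22.6 FPKM in WT and 11.6, 19.5 and 6.74 in KO libraries. Intact levels of C2 were 3.24, 4.81 and 1.57 FPKM in WT and 1.64, 2.25 and 2.39 in KO libraries. All KO ovx libraries stood above all WT ovx libraries. C2 was higher in KO than WT in ovx by 2.13 ± 0.43 (adjusted p = 0.0125), a ratio of 8.19 of the mean FPKM; the call ended without WT ovx replicate 1 (0.0789) or KO ovx replicate 4 (0.0567), and within batch 3 the difference was 2.12 (adjusted p = 0.0685). E2 raised C2 in WT by 3.00 ± 0.43 (adjusted p = 0.000172, 3.61 within batch 3 and 2.72 within batch 4, both called) and changed it by 0.58 ± 0.43 (adjusted p = 0.338) in KO. This difference in the E2 response was -2.42 ± 0.61 (adjusted p = 0.0241), and it was not called without WT ovx replicate 1 (0.0664), WT ovx replicate 2 (0.0519), KO ovx replicate 4 (0.0636), WT E2 replicate 5 (0.0651), KO E2 replicate 1 (0.0519) or KO E2 replicate 3 (0.0501). Without the 4 libraries with Adipoq it was -1.28 (adjusted p = 0.351).

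The intact comparison also differed between genotypes for C2. Intact KO libraries held less C2 than ovx KO libraries, with a difference of -1.45 ± 0.43 (adjusted p = 0.0345), a call that ended without KO intact replicate 1 (0.102), KO intact replicate 3 (0.0811), KO intact replicate 4 (0.0754), KO ovx replicate 1 (0.0981) or KO ovx replicate 4 (0.0884). The WT difference was 1.06 ± 0.43 (adjusted p = 0.0594). In the fit that left out all 4 libraries with Adipoq, of which KO ovx replicate 4 belongs to this comparison, the KO difference was -1.25. The difference between the genotypes was -2.50 ± 0.61 (adjusted p = 0.0352), and the call ended without WT intact replicate 2 (0.055), KO intact replicate 1 (0.0854), KO intact replicate 3 (0.0743), KO intact replicate 4 (0.051), WT ovx replicate 1 (0.0991), WT ovx replicate 2 (0.0725), WT ovx replicate 3 (0.0608), KO ovx replicate 1 (0.0643) or KO ovx replicate 4 (0.0894). It was -2.30 (adjusted p = 0.0618) without the libraries with Adipoq. C2 and Cfb are neighbours, 86 bases apart on chromosome 17 in the table's coordinates, and KO ovx libraries held Cfb at 1.11, 0.794 and 5.43 FPKM against 1.14, 1.13 and 1.79 in WT ovx, so Cfb did not show the separation seen for C2.

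C4b was 1.24, 1.48 and 1.54 FPKM in WT and 0.626, 0.921 and 1.42 in KO libraries in ovx. C4b under E2 was 9.05, 49.5 and 36.1 FPKM in WT and 25.7, 28.1 and 29.1 in KO libraries. Intact levels of C4b were 0.714, 2.1 and 0.588 FPKM in WT and 1.36, 1.65 and 1.04 in KO libraries. Every E2 library exceeded every other library. E2 raised C4b by 3.46 ± 0.43 (adjusted p = 7.19e-05) in WT and 3.86 ± 0.43 (adjusted p = 1.62e-05) in KO, ratios of 22.3 and 27.9 of the mean FPKM, and both calls held without each library in turn. Within batches the WT changes were 3.96 within batch 3 and 3.18 within batch 4 and the KO change was 3.94 within batch 3, all called.

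Serping1, the gene of the C1 inhibitor that removes C1r and C1s, was 39.6, 43.7 and 38.1 FPKM in WT and 31.2, 29.4 and 18.3 in KO libraries in ovx. Under E2 it was 22.9, 72.1 and 61.4 FPKM in WT and 257, 122 and 157 in KO libraries, all KO libraries above WT, and in the intact state 16.8, 58.3 and 4.87 FPKM in WT and 35.7, 38.5 and 27.8 in KO libraries. E2 raised Serping1 in KO by 2.68 ± 0.61 (adjusted p = 0.00522); in WT the difference was 0.21 ± 0.61 (adjusted p = 0.799). The genotype difference in this response was 2.48 ± 0.87 (adjusted p = 0.0783) and that of KO against WT under E2 1.84 ± 0.61 (adjusted p = 0.0789), neither called. Without the 4 libraries with Adipoq the KO change was 1.98 (adjusted p = 0.174), and within batch 3 it was 2.56 (adjusted p = 0.052).

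**Figure D3:**
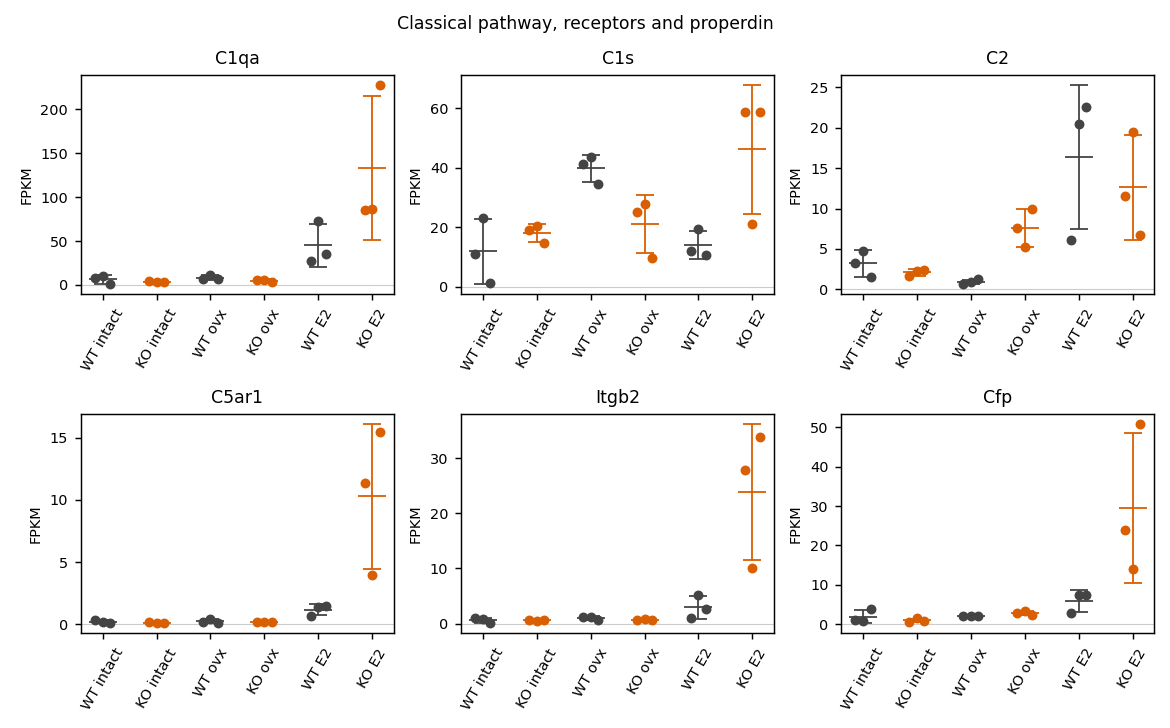
FPKM of C1qa, C1s, C2, C5ar1, Itgb2 and Cfp in each library (points) by group, WT in grey and KO in orange, with the mean and SD of 3 libraries (bars). C5ar1, Itgb2 and Cfp stand highest in KO E2, and C2 separates KO ovx from WT ovx.

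The lectin pathway was represented by Masp1, at most 0.321 FPKM in any library and not tested, and Masp2, the protease that cuts C4 and C2. Masp2 was 2.69, 2.64 and 3.09 FPKM in WT and 0.64, 0.799 and 0.529 in KO libraries in ovx. Masp2 under E2 was 0.268, 0.177 and 0.0481 FPKM in WT and 0.0641, 0.0888 and 0.147 in KO libraries. Intact levels of Masp2 were 0.197, 0.305 and 0 FPKM in WT and 0.265, 0.263 and 0.066 in KO libraries. Only WT ovx libraries exceeded 1 FPKM, so Masp2 met the level for testing through that group alone. Leaving out a library did not repeat that choice. Masp2 was lower in KO than WT in ovx with a difference of -1.20 ± 0.13 (adjusted p = 0.000229), called without each library in turn and within batch 3 (-1.23). It fell with E2 with a difference of -1.71 ± 0.13 (adjusted p = 9.51e-06, -1.89 within batch 3 and -1.57 within batch 4, both called) in WT and -0.59 ± 0.13 (adjusted p = 0.00526, -0.53 within batch 3, not called) in KO, and the fall was the larger in WT by 1.12 ± 0.19 (adjusted p = 0.00427). Intact libraries were lower than ovx with a difference of -1.71 ± 0.13 (adjusted p = 2.85e-06) in WT and -0.47 ± 0.13 (adjusted p = 0.0282) in KO, the latter not called without KO intact replicate 3 (0.0547), KO intact replicate 4 (0.122), KO ovx replicate 1 (0.0806) or KO ovx replicate 2 (0.111), and these differed by 1.24 ± 0.19 (adjusted p = 0.00615). Masp2 was at most 0.305 FPKM in E2 and intact libraries, so KO, being lower in ovx, had less room to fall. The genotype differences in these responses therefore largely restate the difference between KO and WT in ovx. Masp2 and Tardbp, which encodes an RNA-binding protein, are listed with the same span in the table, so their reads may not be told apart with certainty. Tardbp, at 5.96 to 15.4 FPKM, was not called between KO and WT in ovx (-0.23 ± 0.20, adjusted p = 0.57) and fell with E2 in WT (-0.85 ± 0.20, adjusted p = 0.0038).

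In the alternative pathway, C3 and Cfb, which encode the central component and the protease of the C3 convertase, showed the largest E2 responses of the members in WT on the log2(FPKM + 1) scale. By ratios of mean FPKM, C4bp (451) and Cfi (207), which are low in ovx, exceeded C3 (79.3). C3 was 5.44, 4.91 and 8.52 FPKM in WT and 2.74, 2.78 and 26.4 in KO libraries in ovx. C3 under E2 was 450, 402 and 646 FPKM in WT and 114, 317 and 190 in KO libraries. Intact levels of C3 were 9.27, 102 and 433 FPKM in WT and 13.1, 14.3 and 14.8 in KO libraries. KO intact libraries lay within 13.1 to 14.8 FPKM, and WT intact libraries spread from 9.27 to 433. E2 raised C3 by 6.10 ± 0.99 (adjusted p = 0.000317) in WT, a ratio of 79.3 of the mean FPKM, and by 4.72 ± 0.99 (adjusted p = 0.00301) in KO, a ratio of 19.5. Within batches the WT changes were 6.37 within batch 3 and 6.17 within batch 4, called in batch 3, and the KO change within batch 3 was 4.71 (adjusted p = 0.112). Intact WT libraries exceeded ovx by 3.43 ± 0.99 (adjusted p = 0.0122), a call that ended without WT intact replicate 4 (0.067); in KO the difference was 1.04 ± 0.99 (adjusted p = 0.513).

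Cfb was 1.14, 1.13 and 1.79 FPKM in WT and 1.11, 0.794 and 5.43 in KO libraries in ovx. Cfb under E2 was 174, 252 and 495 FPKM in WT and 41.2, 224 and 35.1 in KO libraries. Intact levels of Cfb were 15.4, 29.9 and 139 FPKM in WT and 4.34, 4.72 and 7.24 in KO libraries. The E2 libraries of WT were all at 174 FPKM or above, while KO E2 replicate 2 alone reached that range in KO. E2 raised Cfb by 6.90 ± 0.76 (adjusted p = 3.64e-05) in WT and 4.59 ± 0.76 (adjusted p = 0.000521) in KO, ratios of 227 and 41.0. Within batches these were 7.66 within batch 3 and 6.62 within batch 4 in WT, both called, and 3.64 (adjusted p = 0.0836) within batch 3 in KO. Intact exceeded ovx in WT by 4.15 ± 0.76 (adjusted p = 0.000829), and by 1.12 ± 0.76 (adjusted p = 0.343) in KO.

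Between genotypes neither gene was called in any state with all libraries. In the intact state the KO difference was -2.36 ± 0.99 (adjusted p = 0.219) for C3 and -2.71 ± 0.76 (adjusted p = 0.0779) for Cfb, with no overlap between the Cfb libraries of KO and WT (22.8% of all genes tested did not overlap). Without WT intact replicate 1 both were lower in KO, with a difference of -3.81 (adjusted p = 0.0168) and -3.38 (adjusted p = 0.0303). Under E2 the differences were -1.35 ± 0.99 (adjusted p = 0.474) and -2.0 ± 0.76 (adjusted p = 0.127), and Cfb was called without KO E2 replicate 2 (-2.84, adjusted p = 0.0142).

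Cfp, which encodes properdin, was 2.18, 2.17 and 2.07 FPKM in WT and 2.9, 3.36 and 2.4 in KO libraries in ovx. Cfp under E2 was 2.74, 7.52 and 7.55 FPKM in WT and 23.9, 14.1 and 50.9 in KO libraries. Intact levels of Cfp were 0.954, 0.87 and 3.85 FPKM in WT and 0.69, 1.47 and 0.824 in KO libraries. No KO E2 library overlapped WT E2. Under E2 Cfp was higher in KO by 2.05 ± 0.43 (adjusted p = 0.00898), a ratio of 4.99 of the mean FPKM; the call ended without WT E2 replicate 1 (0.0536), and the difference was 2.60 within batch 3 and 1.78 within batch 4, neither called. E2 raised Cfp in KO by 2.80 ± 0.43 (adjusted p = 0.000279, 3.75 within batch 3, called), and in WT the difference was 1.05 ± 0.43 (adjusted p = 0.0576). Without the 4 libraries with Adipoq the KO and WT difference was 1.42 (adjusted p = 0.223).

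Cfd, which encodes factor D and is known as adipsin for its high expression in fat, was high in single libraries. Cfd was 0.155, 0.134 and 0.258 FPKM in WT and 0.095, 0.071 and 47.6 in KO libraries in ovx. Cfd under E2 was 0.183, 28.6 and 0.141 FPKM in WT and 257, 0.104 and 1212 in KO libraries. Intact levels of Cfd were 0, 0.0317 and 0 FPKM in WT and 0, 0 and 0 in KO libraries. The 4 libraries above 1 FPKM are the 4 with Adipoq of at least 1 FPKM. Cfd was not called in any comparison, with 4.36 ± 2.01 (adjusted p = 0.213) for KO against WT under E2, but without KO E2 replicate 2 this became 7.36 (adjusted p = 0.00323). The 10 adipocyte markers summed to 7.42 to 9.25 FPKM in WT ovx, 9.28 to 139 in KO ovx, 11.6 to 28.3 in WT E2 and 14.4 to 1715 in KO E2 libraries. Adipoq, Plin1, Cidec, Lep and Retn stayed under 0.1 FPKM in every WT ovx library. The part of fat in the Cfd values was not tested beyond this match.

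**Figure D4:**
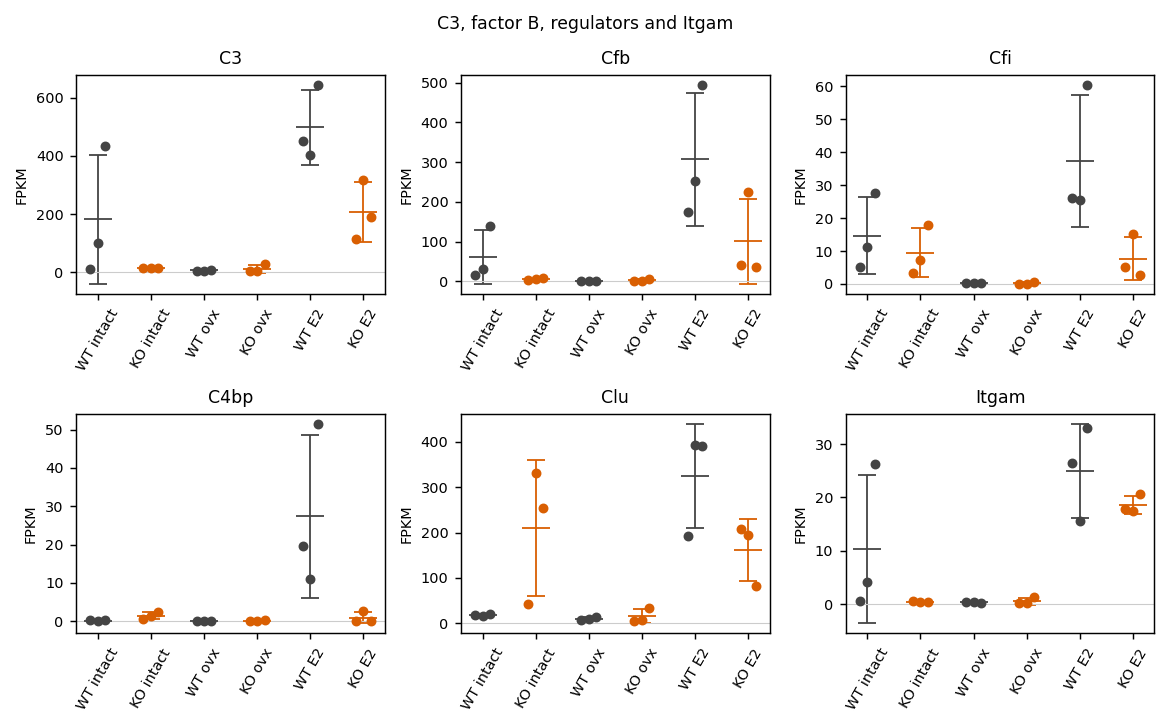
FPKM of C3, Cfb, Cfi, C4bp, Clu and Itgam in each library (points) by group, WT in grey and KO in orange, with the mean and SD of 3 libraries (bars). All 6 genes are high in WT E2, C4bp is near 0 in 2 of the 3 KO E2 libraries, and Clu is also high in KO intact.

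The terminal pathway was hardly detected. C6 and C7, components of the membrane attack complex, were highest in KO E2 replicate 3, at 1.32 and 1.33 FPKM, and C8g, the gamma chain of C8, reached 0.324 FPKM. None of these 3 genes met the level for testing. C8g also shares its listed span with other genes of the table, among them Fbxw5.

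Among regulators, C4bp, which encodes the binding protein that disarms C4b, had the largest called difference between KO and WT of any member. C4bp was 0.0967, 0.0338 and 0.0514 FPKM in WT and 0.022, 0.0803 and 0.343 in KO libraries in ovx. C4bp under E2 was 19.6, 11 and 51.5 FPKM in WT and 0.0246, 2.58 and 0.0172 in KO libraries. Intact levels of C4bp were 0.222, 0.0639 and 0.191 FPKM in WT and 0.523, 1.36 and 2.33 in KO libraries. All WT E2 libraries exceeded 10 FPKM, and no library of any other group reached 3 FPKM. Under E2 C4bp was lower in KO with a difference of -3.92 ± 0.49 (adjusted p = 0.000369), called without each library in turn, with -5.69 within batch 3 and -3.04 within batch 4, called in batch 3. E2 raised it in WT by 4.47 ± 0.49 (adjusted p = 3.49e-05, 5.61 within batch 3 and 3.93 within batch 4, both called), while the KO difference was 0.44 ± 0.49 (adjusted p = 0.529). The difference between the responses was -4.03 ± 0.69 (adjusted p = 0.00466). In the intact state all KO libraries exceeded all WT libraries, by 0.98 ± 0.49 (adjusted p = 0.305), which was not called.

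Cfi, which encodes the protease that degrades C3b and C4b, was 0.193, 0.172 and 0.178 FPKM in WT and 0.0636, 0.076 and 0.659 in KO libraries in ovx. Cfi under E2 was 26.1, 25.5 and 60.6 FPKM in WT and 5.22, 15.1 and 2.78 in KO libraries. Intact levels of Cfi were 5.02, 11.2 and 27.7 FPKM in WT and 3.38, 7.29 and 17.9 in KO libraries. No E2 or intact library overlapped the ovx libraries of its genotype. E2 raised Cfi by 4.90 ± 0.61 (adjusted p = 8.09e-05, 5.70 within batch 3 and 4.51 within batch 4, both called) in WT and 2.55 ± 0.61 (adjusted p = 0.00713, 1.61 within batch 3, not called) in KO. Ovaries in place went with differences from ovx of 3.44 ± 0.61 (adjusted p = 0.000689) in WT and 2.83 ± 0.61 (adjusted p = 0.00614) in KO. Under E2 Cfi was lower in KO than in WT with a difference of -2.29 ± 0.61 (adjusted p = 0.0316); the call ended without WT E2 replicate 1 (0.0664), WT E2 replicate 5 (0.145), KO E2 replicate 1 (0.122) or KO E2 replicate 3 (0.127), and the difference was -4.03 within batch 3 and -1.42 within batch 4, neither called. Without the 4 libraries with Adipoq it was -1.34 (adjusted p = 0.422).

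Epithelium markers differed between the same groups. The 12 uterine epithelium markers summed to 88.2 to 160 FPKM in WT ovx, 223 to 698 in KO ovx, 863 to 1377 in WT E2, 122 to 887 in KO E2, 447 to 1525 in WT intact and 233 to 456 in KO intact libraries, and all 12 were above 0.1 FPKM in some library of each group. In KO E2 replicate 2, where they summed to 887, Cfb was 5.43 times and Cfi 2.89 times the higher of the other 2 KO E2 libraries. By the same measure C3 was 1.67 times, Clu 0.942 times and Cd55 0.639 times. C4bp in that library was 2.58 FPKM, below the 11.0 to 51.5 of WT E2 libraries, whose epithelium sums were 863 to 1377. WT intact replicate 4, with 1525, held C3 at 433 but C4bp at 0.191 FPKM. KO ovx replicate 4, with 698, held Cfb at 5.43 and Cfi at 0.659 FPKM. The part of epithelial content in these differences was not tested.

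Clu, which encodes clusterin, a secreted chaperone that binds the C5b-9 complex, was 6.74, 9.75 and 13.3 FPKM in WT and 4.93, 8.45 and 34.4 in KO libraries in ovx. Clu under E2 was 192, 392 and 390 FPKM in WT and 208, 195 and 82.3 in KO libraries. Intact levels of Clu were 18.7, 16.4 and 21.3 FPKM in WT and 42.5, 332 and 255 in KO libraries. KO intact libraries all exceeded WT intact libraries. In the intact state Clu was higher in KO by 2.97 ± 0.71 (adjusted p = 0.0423); the call ended without any library of the 6 except KO intact replicate 1, at an adjusted p of 0.0516, 0.072 and 0.111 without WT replicates 1, 2 and 4 and of 0.204 and 0.118 without KO replicates 3 and 4, and the difference was 2.33 within batch 1 and 4.26 within batch 2, neither called. E2 raised Clu by 4.87 ± 0.71 (adjusted p = 0.000175, 5.21 within batch 3 and 4.68 within batch 4, both called) in WT and 3.58 ± 0.71 (adjusted p = 0.00191, 2.73 within batch 3, not called) in KO. Intact exceeded ovx in KO by 3.62 ± 0.71 (adjusted p = 0.00314) but in WT by 0.89 ± 0.71 (adjusted p = 0.317), and the difference between genotypes, 2.73 ± 1.00 (adjusted p = 0.113), was not called.

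Cd55 encodes decay-accelerating factor, which dissociates C3 convertases from cell membranes. Cd55 was 3.08, 4.2 and 4.04 FPKM in WT and 11.7, 8.52 and 18.8 in KO libraries in ovx. Cd55 under E2 was 10.3, 7.33 and 14.9 FPKM in WT and 5.96, 8.48 and 13.3 in KO libraries. Intact levels of Cd55 were 6.34, 15.7 and 18.5 FPKM in WT and 3.81, 3.67 and 6.55 in KO libraries. KO exceeded WT in every ovx library. Cd55 was higher in KO than WT in ovx by 1.5 ± 0.38 (adjusted p = 0.0376), a call that ended without WT ovx replicate 1 (0.161), WT ovx replicate 2 (0.0842), WT ovx replicate 3 (0.0932), KO ovx replicate 1 (0.0852) or KO ovx replicate 4 (0.159), and within batch 3 the difference was 1.56 (adjusted p = 0.129); without the 4 libraries with Adipoq it was 1.21 (adjusted p = 0.126). Its response to ovaries went opposite ways: intact against ovx was 1.49 ± 0.38 (adjusted p = 0.00646) in WT and -1.27 ± 0.38 (adjusted p = 0.0352) in KO, the KO call ending without KO intact replicate 1 (0.104), KO intact replicate 3 (0.119), KO ovx replicate 1 (0.0868) or KO ovx replicate 4 (0.106). Without KO ovx replicate 4, in the fit that left out all libraries with Adipoq, the KO difference was -0.99 (adjusted p = 0.084). The difference between these responses was -2.77 ± 0.54 (adjusted p = 0.0157), not called without WT ovx replicate 1 (0.0547). E2 raised Cd55 in WT by 1.27 ± 0.38 (adjusted p = 0.014, 1.81 within batch 3, called, and 0.90 within batch 4, not called), a call that ended without WT ovx replicate 1 (0.0543) or WT E2 replicate 5 (0.0671).

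Cr1l, which encodes Crry, the membrane regulator that in rodents covers the role human CD46 has on most cells, ranged from 5.31 to 15.3 FPKM. Cr1l was 5.31, 7.52 and 6.65 FPKM in WT and 8.05, 6.51 and 12 in KO libraries in ovx. Cr1l under E2 was 10.4, 10.8 and 14 FPKM in WT and 8.11, 7.64 and 13.4 in KO libraries. Intact levels of Cr1l were 8.13, 12.1 and 15.3 FPKM in WT and 7.02, 7.89 and 8.4 in KO libraries. Cr1l was higher in WT E2 than WT ovx by 0.76 ± 0.26 (adjusted p = 0.0251, 1.11 within batch 3 and 0.45 within batch 4, neither called), ending without WT ovx replicate 1 (0.0987), WT ovx replicate 3 (0.0513) or WT E2 replicate 5 (0.0931), and in WT intact by 0.75 ± 0.26 (adjusted p = 0.0286), ending without WT intact replicate 2 (0.0664), WT intact replicate 4 (0.128), WT ovx replicate 1 (0.11) or WT ovx replicate 3 (0.0573). Cd46 itself was at most 0.197 FPKM in any library and was not tested. Cd59a, which blocks the membrane attack complex, ranged from 3.17 to 9.56 FPKM and was called in none of the 9 comparisons, where 3 had an unadjusted p under 0.05.

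Vtn, the gene of vitronectin, which binds the terminal complex, would have missed the level for testing without WT ovx libraries. This limits what its calls against WT ovx can show. Vtn stayed between 0.0488 and 2.76 FPKM. It was lower in WT E2 than WT ovx with a difference of -0.91 ± 0.32 (adjusted p = 0.0277, -1.10 within batch 3, called, and -0.81 within batch 4, not called), a call that ended without WT ovx replicate 1 (0.0597), WT ovx replicate 2 (0.0611), WT ovx replicate 3 (0.0688), WT E2 replicate 2 (0.0606) or WT E2 replicate 5 (0.0884), and lower in WT intact with a difference of -1.07 ± 0.32 (adjusted p = 0.0137).

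The anaphylatoxin receptors among the members, C5ar1 and C3ar1, rose with E2 in both genotypes. C5ar1, the C5a receptor of neutrophils and macrophages, was 0.192, 0.402 and 0.124 FPKM in WT and 0.144, 0.165 and 0.177 in KO libraries in ovx. C5ar1 under E2 was 0.631, 1.42 and 1.44 FPKM in WT and 11.4, 3.97 and 15.5 in KO libraries. Intact levels of C5ar1 were 0.303, 0.213 and 0.055 FPKM in WT and 0.147, 0.113 and 0.115 in KO libraries. Every KO E2 library exceeded every WT E2 library. Only E2 libraries reached 1 FPKM, so C5ar1 met the level for testing through the state where it was high. C5ar1 under E2 was higher in KO by 2.24 ± 0.31 (adjusted p = 0.000649), a ratio of 8.85 of the mean FPKM, called without each library in turn, with 2.76 within batch 3 and 1.98 within batch 4, called in batch 3. E2 raised it by 3.11 ± 0.31 (adjusted p = 7.25e-06, 3.83 within batch 3, called) in KO and 0.79 ± 0.31 (adjusted p = 0.0477, 1.07 within batch 3 and 0.50 within batch 4, neither called) in WT, the WT call ending without WT ovx replicate 1 (0.111), WT ovx replicate 2 (0.0623), WT ovx replicate 3 (0.12), WT E2 replicate 2 (0.128) or WT E2 replicate 5 (0.137). The difference between these responses was 2.33 ± 0.44 (adjusted p = 0.00652).

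C3ar1, the C3a receptor, was 0.232, 0.385 and 0.151 FPKM in WT and 0.161, 0.174 and 0.118 in KO libraries in ovx. C3ar1 under E2 was 0.765, 1.18 and 2.93 FPKM in WT and 5.7, 2.72 and 12.1 in KO libraries. Intact levels of C3ar1 were 1.03, 0.6 and 0.0585 FPKM in WT and 0.256, 0.22 and 0.341 in KO libraries. The KO E2 and WT E2 libraries overlapped at 2.72 and 2.93 FPKM. Under E2 C3ar1 was higher in KO by 1.48 ± 0.37 (adjusted p = 0.0221); the call ended without WT E2 replicate 1 (0.104), WT E2 replicate 2 (0.0613), KO E2 replicate 1 (0.072) or KO E2 replicate 3 (0.0909), and the difference was 1.74 within batch 3 and 1.35 within batch 4, neither called. Leaving out the libraries with Adipoq gave 0.50 (adjusted p = 0.533). E2 raised it by 2.58 ± 0.37 (adjusted p = 0.000139, 3.51 within batch 3, called) in KO and by 0.98 ± 0.37 (adjusted p = 0.0394, 1.72 within batch 3, called, and 0.50 within batch 4, not called) in WT, where the call ended without WT ovx replicate 1 (0.0908), WT ovx replicate 2 (0.0621), WT ovx replicate 3 (0.097), WT E2 replicate 2 (0.0543) or WT E2 replicate 5 (0.189). The genotype difference in the E2 response, 1.60 ± 0.52 (adjusted p = 0.0605), was not called.

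Itgb2 encodes the β2 chain that pairs with Itgam as complement receptor 3 and with Itgax as complement receptor 4. Itgb2 was 1.16, 1.24 and 0.69 FPKM in WT and 0.664, 0.814 and 0.645 in KO libraries in ovx. Itgb2 under E2 was 1.04, 5.15 and 2.68 FPKM in WT and 27.9, 10.1 and 33.8 in KO libraries. Intact levels of Itgb2 were 0.976, 0.754 and 0.0175 FPKM in WT and 0.584, 0.556 and 0.595 in KO libraries. No KO E2 library overlapped WT E2. Itgb2 under E2 was higher in KO by 2.64 ± 0.40 (adjusted p = 0.00114), called without each library in turn, and by 3.24 within batch 3 and 2.34 within batch 4, neither called. E2 raised it by 3.71 ± 0.40 (adjusted p = 1.4e-05, 4.35 within batch 3, called) in KO, with 0.83 ± 0.40 (adjusted p = 0.0994) in WT, and the responses differed by 2.88 ± 0.57 (adjusted p = 0.00848).

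Itgam did not follow its partner chain. Itgam was 0.402, 0.477 and 0.328 FPKM in WT and 0.182, 0.197 and 1.33 in KO libraries in ovx. Itgam under E2 was 26.4, 15.6 and 33 FPKM in WT and 17.9, 17.5 and 20.6 in KO libraries. Intact levels of Itgam were 0.575, 4.15 and 26.3 FPKM in WT and 0.697, 0.339 and 0.42 in KO libraries. WT E2 and KO E2 libraries overlapped, and WT intact replicate 4 lay within the WT E2 range. E2 raised Itgam by 4.15 ± 0.67 (adjusted p = 0.000295) in WT and 3.72 ± 0.67 (adjusted p = 0.00093) in KO. Within batches the changes were 4.64 within batch 3 and 3.85 within batch 4 in WT, called in batch 3, and 3.86 (adjusted p = 0.0612) within batch 3 in KO. Intact exceeded ovx in WT by 2.11 ± 0.67 (adjusted p = 0.0191), a call that ended without WT intact replicate 4 (0.0722) or WT ovx replicate 1 (0.0521). Under E2 the difference between KO and WT was -0.35 ± 0.67 (adjusted p = 0.825), which was not called. The Itgam to Itgb2 ratio spanned 0.347 to 0.476 over WT ovx, 0.608 to 1.72 over KO E2 and 3.03 to 25.5 over WT E2 libraries, and it was 1501 in WT intact replicate 4, where Itgb2 was 0.0175 FPKM.

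Itgax stayed at or below 3.73 FPKM and reached 1 FPKM only in E2 libraries, through which it met the level for testing. E2 raised it by 0.91 ± 0.24 (adjusted p = 0.00653, 0.92 within batch 3 and 0.85 within batch 4, neither called) in WT and 1.69 ± 0.24 (adjusted p = 0.000129, 1.92 within batch 3, called) in KO. Cd93, a surface protein of endothelial and myeloid cells first described as a C1q receptor, ranged from 0.106 to 6.89 FPKM. It fell with E2 in WT with a difference of -1.30 ± 0.50 (adjusted p = 0.0428, -1.18 within batch 3 and -1.47 within batch 4, neither called), a call that ended without WT ovx replicate 1 (0.0864), WT ovx replicate 2 (0.104), WT ovx replicate 3 (0.0747), WT E2 replicate 1 (0.0842), WT E2 replicate 2 (0.0841) or WT E2 replicate 5 (0.0856); in KO it differed by 0.80 ± 0.50 (adjusted p = 0.244). The 8 blood endothelium markers summed to 31.1 to 36 FPKM in WT ovx and 10 to 12.5 in WT E2 libraries, and none was under 0.1 FPKM throughout a group. In KO E2 replicates 1, 2 and 3 they summed to 45.4, 11.8 and 51.1, and Cd93 was 3.63, 0.848 and 6.89 FPKM. The part of endothelial content in the Cd93 values was not tested.

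Neutrophil and macrophage markers stood beside the receptor changes. The 12 neutrophil markers summed to 186 to 2599 FPKM in WT E2 and 1482 to 15002 in KO E2 libraries, and ovx sums were 18.7 to 26.5 for WT and 22.8 to 292 for KO, where Elane stayed under 0.1 FPKM in both genotypes. Without Ltf and Ly6g, left out after the values were seen because Ltf is also a secretory product of uterine epithelium and Ly6g was 12.2 to 405 FPKM in every library, the sums were 72.4 to 569 in WT E2 and 1357 to 14741 in KO E2. All KO E2 libraries exceeded all WT E2 libraries for 10 of the 12 neutrophil markers and 5 of the 10 macrophage markers, and the others overlapped. The part of these cells in the differences of C5ar1, C3ar1, Itgb2 and Cfp was not tested.

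**Figure D5:**
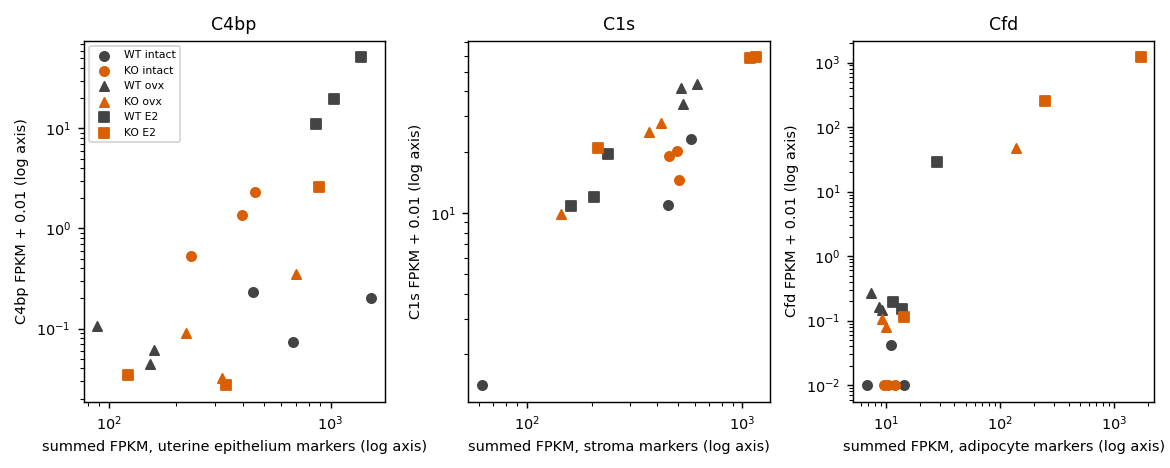
FPKM of C4bp, C1s and Cfd (each + 0.01, log axis) against the summed FPKM of epithelium, stroma and adipocyte markers (log axis), 1 point a library, WT in grey and KO in orange. Cfd is high where adipocyte sums are high, and WT E2 libraries hold the 3 highest C4bp values. C1s is highest in KO E2 replicates 1 and 3, which have the highest stroma sums. It is lower in KO intact libraries than in KO ovx replicates 1 and 2, whose stroma sums are smaller.

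Complement genes outside the 31 were taken from a list of 38, of which 35 were found and 16 tested. Between E2 and ovx 9 were called in WT, 8 higher and 1 lower, which is 56.2% of those tested beside 47.5% of all genes. In KO 4 were called, all higher, which is 25% beside 27.1% of all genes. The WT calls included C1rb, C4a and Daf2, and the KO calls C4a. These are near copies of the members C1ra, C4b and Cd55, so their calls are not independent of the members' calls. Cpn1, also called in WT, reached 1 FPKM only in KO ovx replicate 4, WT E2 replicate 5 and KO E2 replicate 2. The list median was 1.06 in WT and 0.59 in KO, and that of all genes 0.24 and 0.07. Fcna, which encodes a ficolin that starts the lectin pathway, rose by 0.75 ± 0.21 in WT and 1.58 ± 0.21 in KO, and was higher in KO than WT under E2 by 0.97 ± 0.21 (adjusted p = 0.01). Ptx3, which encodes a pentraxin that binds C1q, rose in KO by 1.48 ± 0.46. Without KO E2 libraries Fcna and Ptx3 would have missed the level for testing, which limits what these calls can show. Between KO and WT 0 of the 16 were called in limma in the intact state and 0 in ovx, with 3 at an unadjusted p under 0.05 in each. The 8 hepatocyte markers summed to 0.475 to 0.971 FPKM in WT intact, 2.57 to 2.96 in KO intact, 0.66 to 1.63 in WT ovx, 0.945 to 12.9 in KO ovx, 1.68 to 7.89 in WT E2 and 10.2 to 50.7 in KO E2 libraries. Serpina3k made up most of the KO E2 sums, at 48.8, 9.78 and 49.6 FPKM, and Ttr most of the KO ovx replicate 4 sum, at 10.7, while Alb, Apoa1 and Fgb stayed under 0.1 FPKM in every library.

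Several members have near copies in the table, and reads may be split between such pairs, so their values are uncertain. For 3 pairs the ratio hardly changed between libraries. C1ra was 0.81 to 0.891 of C1rb, C1s was 0.942 to 1.00 of Gm5077 and C4b was 0.993 to 1.05 of C4a in all 18 libraries. The ratio varied more for Cd59a, at 1.81 to 2.74 times Cd59b, and for Cd55, at 1.16 to 2.09 times Daf2.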

How the data were processed

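The authors deposited 1 table of FPKM per gene for all libraries; Cufflinks 2.0.2 and Cuffdiff are named in the submitters' processing notes, and the aligner, annotation and genome build are not given in the sources used here. No counts are given, so sequencing depth is unknown and no counting interval could be made. FPKM + 1 was log2-transformed, and genes with at least 1 FPKM in at least 3 libraries were tested (13898 of 25791) in 1 limma 3.58.1 fit (R 4.3.3; tables made in Python 3.11.15) of 6 groups of 3 libraries, without covariates. The 9 comparisons were adjusted by Benjamini-Hochberg at 0.05, and the procedure was tested on simulated data. Batches were read from the spacing of values up to 0.05 FPKM, with their number fixed at 4. At that fixed number, 3 of 3 other settings gave the same sets. Members called in any comparison and averaging at least 5 FPKM in a compared group are given by library. The members, lists and alternatives were chosen with earlier results of these data known. Alternatives were another pseudocount, no filter, median-ratio scaling, a replicate block, a batch term, single batches, each library left out, and exclusion of 4 libraries with Adipoq. Replicate numbers do not pair samples by the labels.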

Additional observations from a re-analysis of the deposited data

Results flagged for a closer look

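At 9 places the response of a gene differed between genotypes by the interaction term of the limma fit, KO minus WT. For estradiol against ovx, the difference was 2.97 ± 0.78 for C1ra (adjusted p = 0.0268), -2.42 ± 0.61 for C2 (adjusted p = 0.0241) and 1.12 ± 0.19 for Masp2 (adjusted p = 0.00427). It was -4.03 ± 0.69 for C4bp (adjusted p = 0.00466), 2.33 ± 0.44 for C5ar1 (adjusted p = 0.00652) and 2.88 ± 0.57 for Itgb2 (adjusted p = 0.00848). For intact against ovx, it was -2.50 ± 0.61 for C2 (adjusted p = 0.0352), 1.24 ± 0.19 for Masp2 (adjusted p = 0.00615) and -2.77 ± 0.54 for Cd55 (adjusted p = 0.0157). Both sets use the same ovx libraries. Masp2 met the level for testing only through WT ovx libraries, and C5ar1 only through E2 libraries. Masp2 was at most 0.305 FPKM in E2 and intact libraries, so its differences here largely restate that between KO and WT in ovx.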

How the results depend on the processing

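Of 70 calls of single members, 62 held with a pseudocount of 0.1, 61 without the filter, 70 with median-ratio scaling and 60 without the 4 libraries with Adipoq of at least 1 FPKM, an alternative chosen after seeing the data; none reversed. A batch term kept 47 of 52, batch 3 alone 24 of 45 and batch 4 alone 7 of 26, and 45 of 70 held without each library in turn. Leaving out single libraries moved the members called between KO and WT from 0 to 4 in the intact state (1 with all), 1 to 3 in ovx (3) and 3 to 11 under E2 (6). For E2 against ovx the range was 13 to 20 in WT (20) and 16 to 19 in KO (16), and for intact against ovx 7 to 11 in WT (10) and 2 to 4 in KO (5). For the genotype difference it was 4 to 13 for E2 (6) and 1 to 7 for ovaries (3). In the intact state KO against WT gave 0 without the filter, 0 with a batch term, 0 within batch 1 and 0 within batch 2, where 6, 5, 4 and 4 members had an unadjusted p under 0.05 in limma, and 2 without the libraries with Adipoq. Within batch 3, KO against WT gave 1 in ovx and 3 under E2, and within batch 4 it gave 0 under E2, with 6 at an unadjusted p under 0.05 in limma. E2 against ovx gave 12 within batch 3 and 7 within batch 4 in WT, and 10 within batch 3 in KO. Intact against ovx in KO gave 3 without the filter, and the genotype difference for E2 gave 11 with median-ratio scaling. The cause of these changes was not tested. Single batches and left-out libraries hold fewer samples, and the shares of all genes called in these fits are not given here.

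With the replicate number as a block, members called between KO and WT were 3 in the intact state, 2 in ovx and 3 under E2, those of E2 against ovx 15 in WT and 16 in KO, those of intact against ovx 9 and 4, and those of the genotype difference 1 for E2 and 2 for ovaries. Same-numbered samples correlated at -0.18 to 0.34 in their deviations from group means, with 2 shared numbers a comparison, so the numbers were not taken to pair samples.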

Other observations

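Hc, which encodes C5, was looked at after its values were seen. It ranged from 0 to 0.0232 FPKM over the WT libraries and from 0.00982 to 0.377 FPKM over the KO libraries, below the level for testing.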
